A study of Mus musculus with 14 samples.

Results

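The mitochondrial ribosomal protein genes are the nuclear genes that encode the proteins of the ribosome inside mitochondria, with names in Mrpl for the large subunit and Mrps for the small subunit. They were chosen by symbol alone, as Mrpl or Mrps followed by a number and at most 1 further letter, and 78 of the 52459 genes in the count tables had such a name. The rule uses the symbol and no measured value, and the group was picked with earlier results of these data known. The samples were mouse embryonic stem cells (mESCs) of the line E14Tg2a, either wild type (WT) or carrying METTL14 R255K, a knock-in made with CRISPR-Cas9 that replaces 1 arginine of METTL14 with lysine. METTL14 is the RNA-binding partner of METTL3 in the enzyme complex that writes N6-methyladenosine (m6A) on mRNA. For the decay series both genotypes received 5 μg/ml actinomycin D, which blocks transcription, and were harvested after 0, 4 and 8 h, with 1 RNA-seq library per genotype and time. For MeRIP-seq, in which RNA fragments bound by an m6A antibody (IP) are sequenced beside the input RNA, there were 2 IP and 2 input libraries per genotype without actinomycin D in their labels, and the authors deposited 1 peak list per genotype. The knock-in cells were grown from single colonies, and how many clones the libraries represent is not given in the sources used here.

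The mitochondrial ribosome translates the few proteins that mitochondrial DNA encodes, all of them subunits of the respiratory chain or the ATP synthase. Its proteins are made in the cytoplasm from nuclear mRNAs and imported, so their mRNAs are open to m6A like any other mRNA. Some of them have bacterial homologues, while others were added in the mitochondrial lineage. In mRNA, m6A lies mostly near stop codons and in 3′UTRs within the motif DRACH, of which GGAC is the most common form, and it is known to shorten the life of many mRNAs.

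The 6 RNA-seq libraries held 13812160 to 18813640 counts over all genes. With 1 library per genotype and time there is no replicate, so no test was made, and the 95% intervals beside ratios cover counting error only. Levels are in FPKM, counts scaled by the exon length of the gene and the total of the library, which is a share of each library, so a gene can be higher after actinomycin D when other mRNAs are lost faster. Differences are log2 ratios of FPKM + 1. A gene entered the comparisons when its mean over the 0 h libraries was at least 1 FPKM, which held for 11869 genes and for 77 of the 78 mitochondrial ribosomal protein genes. The remaining gene, Mrpl53, had 0 counts in all 6 libraries, and 93.2% of its exon bases are shared with Ccdc142os and Gm42688. Mettl14 itself stood at 5.27, 3.38 and 2.26 FPKM in the WT libraries at 0, 4 and 8 h and at 2.58, 2.03 and 1.5 FPKM in the R255K libraries. Counts per gene cannot show the exchanged base. The 7 stem cell markers summed to 2189 to 2664 FPKM in WT and to 1581 to 1839 FPKM in R255K libraries. Dppa5a alone had 878 to 1717 and 593 to 830 FPKM, so the sum does not describe each marker. Singly, 0, 2 and 4 of the 7 were at least 1.5-fold higher in R255K cells at 0, 4 and 8 h (17%, 25.6% and 36.6% of all genes). At these times 1, 2 and 2 were that much lower (15.7%, 7.29% and 8.2% of all genes). The 8 fibroblast markers summed to 2.68 to 2.75 FPKM in WT and 7.36 to 8.33 FPKM in R255K libraries, with 5 of 8 higher in every R255K library than in any WT library and Lum at 0 throughout, and the 5 endoderm markers summed to 0.390 to 9.04 and 0.413 to 5.91 FPKM. The part of these differences in the results was not tested.

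The mitochondrial ribosomal protein genes were expressed throughout, at moderate levels. At 0 h their median was 28.3 FPKM in WT and 31.8 FPKM in R255K cells, against 8.20 and 7.96 FPKM for all genes tested, and 54 of the 77 stayed above 10 FPKM in all 6 libraries. The highest was Mrpl34, a small protein of the large subunit, at 157, 216 and 240.2 FPKM in WT and 225, 233 and 264 FPKM in R255K cells at 0, 4 and 8 h. Next at 0 h came Mrpl2, which lies near the peptidyl transferase centre, with 98.7 FPKM in WT and 125 FPKM in R255K cells. Mrpl45, which anchors the ribosome to the inner membrane, had 87.9 and 112 FPKM, Mrpl12, the stalk protein related to bacterial L7/L12, had 60.4 and 129 FPKM, and Mrpl28 had 66.0 and 106 FPKM. The lowest was Mrpl48 at 2.57 and 3.70 FPKM, followed by Mrpl33, Mrpl32, Mrps35 and Mrpl13, which lay between 2.65 and 9.70 FPKM. Genes for proteins of the same ribosome thus differed widely in level. Counts of genes that overlap others are less certain, since the use of strand is not given in the sources used here, and 24 of the 78 genes share over 5% of their exon bases with another gene, among those named below Mrpl10, Mrpl12, Mrpl14, Mrpl24, Mrpl27, Mrpl33, Mrpl44, Mrpl46, Mrpl47, Mrpl48, Mrps7, Mrps18c, Mrps24, Mrps25, Mrps27, Mrps30 and Mrps34. Together the genes took 0.515%, 0.559% and 0.523% of the counts of the WT libraries and 0.733%, 0.727% and 0.730% of those of the R255K libraries. All 3 R255K shares lay above all 3 WT shares.

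**Figure D1:**
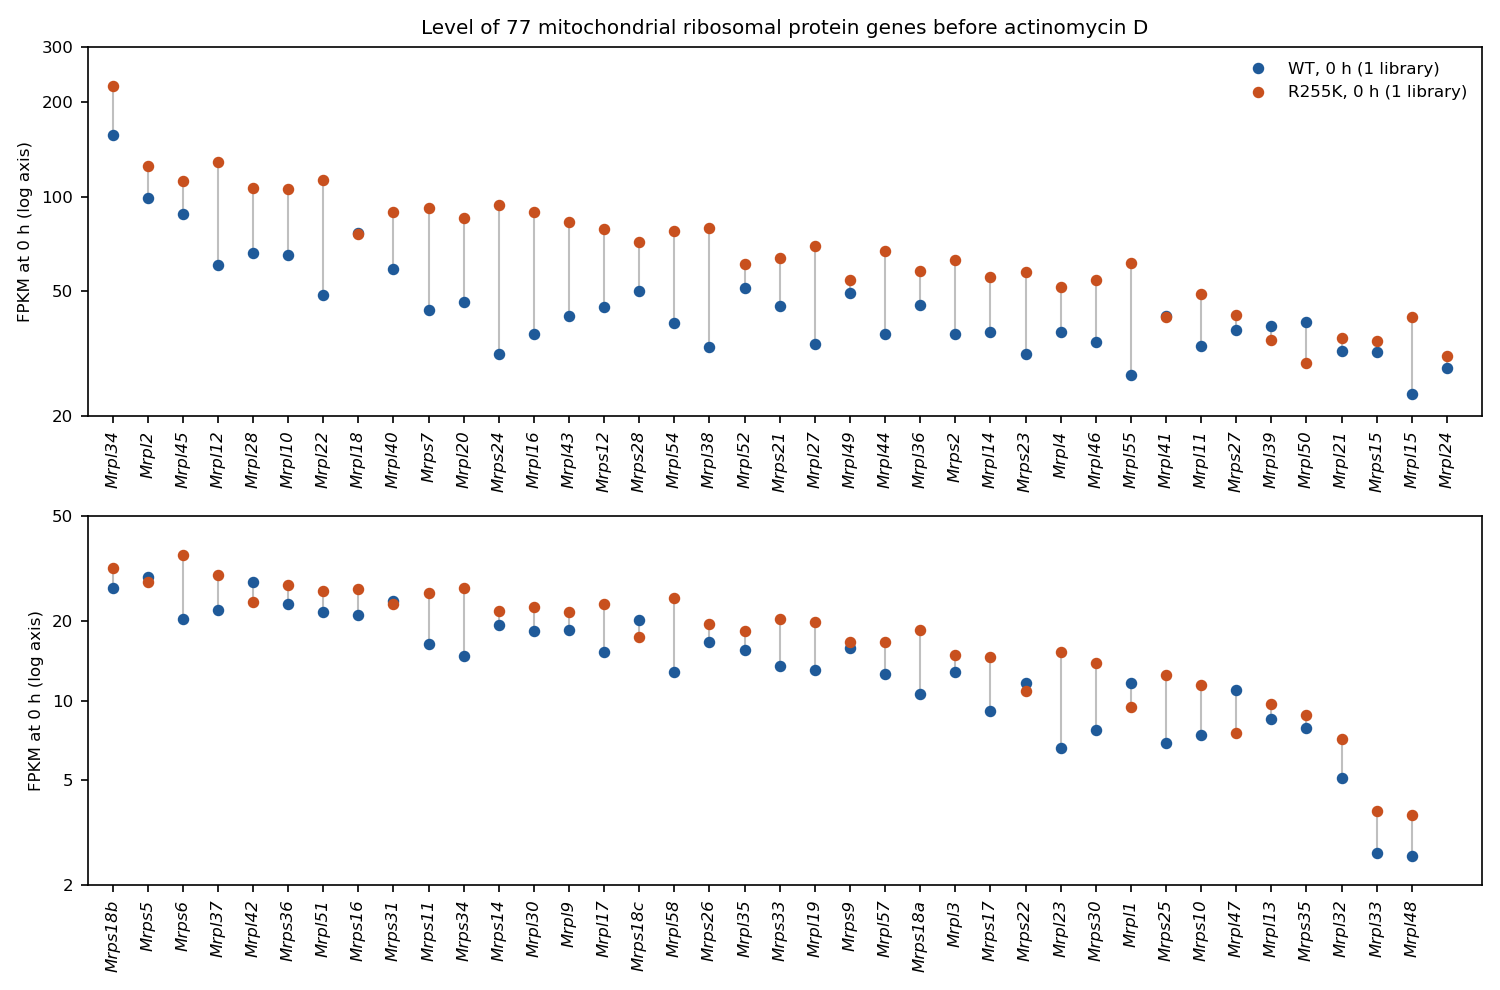
FPKM at 0 h on a log axis for the 77 mitochondrial ribosomal protein genes tested, ordered by their mean, with 1 point for the WT library and 1 for the R255K library. The R255K point lies above the WT point for 66 of the 77 genes, and Mrpl34 is highest in both.

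At 0 h the genes were shifted towards higher levels in R255K cells. Of the 77 genes, 29 were at least 1.5-fold higher in R255K than in WT cells and 0 were at least 1.5-fold lower, while 17% of all 11869 genes tested were that much higher and 15.7% that much lower. The median difference was 0.47 on the log2 scale, against 0.05 for all genes. In bulk RNA, a different share of cells with these mRNAs and a different amount per cell cannot be told apart. At 4 h, 24 were higher (25.6% of all genes) and at 8 h, 38 were higher (36.6% of all genes). The medians were 0.34 and 0.45 against 0.18 and 0.33 for all genes. The distance from all genes was thus smaller at these times, 0.12 at 8 h against 0.42 at 0 h. This depends on the level of the genes compared. Among genes with a mean of at least 10 FPKM at 0 h, 69 of them in this group, the distance was 0.395, 0.298 and 0.405 at 0, 4 and 8 h. None of the 77 genes was at least 1.5-fold lower at 4 h (7.29% of all genes) or at 8 h (8.2% of all genes). The 8 h counts depend on how the libraries are scaled, since with TMM factors 23 were higher and 8 lower (25.1% and 22.3% of all genes), and with median-of-ratios factors 18 were higher and 14 lower (21% and 28.4% of all genes). Under both, the share of the 77 genes that was higher at 8 h lay a little above that of all genes. The medians at 8 h were 0.09 against 0.05 for all genes with TMM factors and −0.05 against −0.06 with median-of-ratios factors. At 0 h these scalings gave 26 and 23 higher (15.2% and 13% of all genes) and 0 lower (16.5% and 18.4% of all genes).

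By known role, some of the genes at least 1.5-fold higher at 0 h lay in the stalk, around the exit tunnel and in the small subunit. Others with the same roles were not past 1.5-fold. The genes given for each role are a selection, so they show no pattern by role. In the stalk and its base, through which translation factors bind, Mrpl12 had 60.4, 61.3 and 56.4 FPKM in WT and 129, 117 and 119 FPKM in R255K cells, a ratio of 2.14 at 0 h (2.01 to 2.27). All 3 R255K values lay above all 3 WT values. Mrpl10, the base of the stalk, had a ratio of 1.63 (1.53 to 1.72), and Mrpl11, of the GTPase-associated centre, one of 1.47 (1.38 to 1.57). Around the exit tunnel, Mrpl22 had 48.7, 58.0 and 52.2 FPKM in WT and 113, 101 and 106 FPKM in R255K cells, Mrpl23 had 6.62 and 15.3 FPKM at 0 h, and Mrpl24 had 28.5 and 31.0 FPKM. The ratio of Mrpl24, 1.09 (1.00 to 1.18), was thus far below those of Mrpl22, 2.32 (2.14 to 2.53), and Mrpl23, 2.31 (2.09 to 2.56). Mrpl2 and Mrpl3, near the peptidyl transferase centre, were not past 1.5-fold at 0 h, with ratios of 1.27 (1.19 to 1.34) and 1.17 (1.08 to 1.25). They do not stand for all genes of that region. In the small subunit, Mrps24 had the highest ratio of all, with 31.5, 29.7 and 20.8 FPKM in WT and 94.4, 96.3 and 100.4 FPKM in R255K cells, and Mrps12, of the decoding centre, had 44.6 and 79.1 FPKM at 0 h. The ratio of Mrps24 at 0 h was 2.99 (2.76 to 3.25), and its WT and R255K libraries did not overlap.

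Among the genes not given by role above, Mrpl16 had 36.4, 39.0 and 39.9 FPKM in WT and 89.1, 85.6 and 94.6 FPKM in R255K cells. Mrpl38 had 33.0, 35.9 and 25.6 FPKM in WT against 79.4, 72.1 and 72.3 FPKM in R255K cells. Both were more than 2-fold higher in R255K cells at all 3 times. At the other end, Mrpl47 had the lowest ratio at 0 h, 0.69 (0.61 to 0.77), from 10.9 FPKM in WT and 7.51 FPKM in R255K cells. Mrpl50 had a ratio of 0.74 (0.68 to 0.80), Mrpl1 one of 0.81 (0.73 to 0.90), Mrpl42 one of 0.84 (0.78 to 0.90) and Mrps18c one of 0.86 (0.74 to 1.01). None of these 5 reached 1.5-fold in that direction. Mrps36, which carries a mitoribosomal name but belongs to the 2-oxoglutarate dehydrogenase complex, had 23.3 and 27.3 FPKM. By subunit, 19 of 50 genes of the large and 10 of 26 of the small subunit were at least 1.5-fold higher in R255K cells at 0 h. The counts for proteins with bacterial homologues and for mitochondria-specific proteins were 17 of 46 and 12 of 30. These shares lay close to each other in both divisions.

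**Figure D2:**
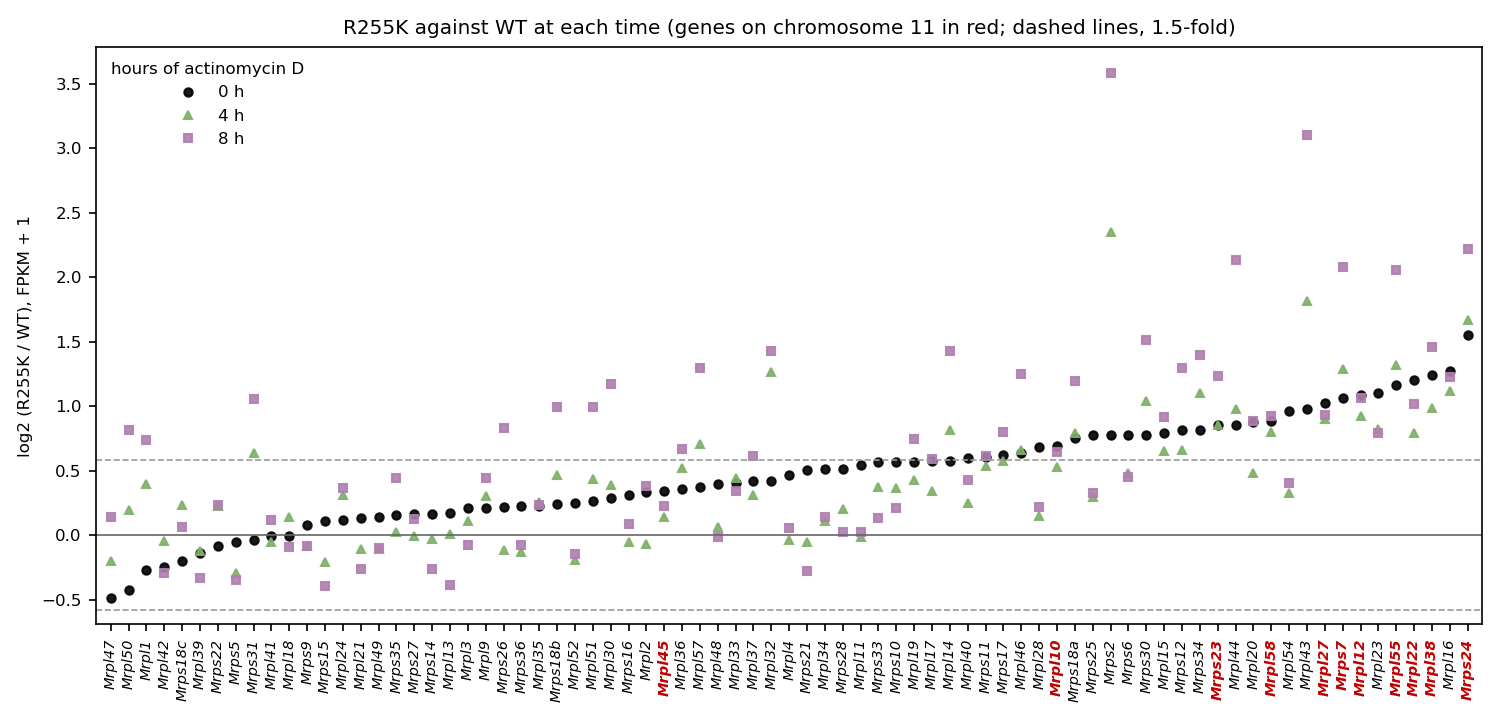
Log2 ratio of R255K to WT (FPKM + 1) at 0, 4 and 8 h for the 77 genes, ordered by the value at 0 h, with dashed lines at 1.5-fold and the 11 genes on chromosome 11 in red. The red names gather at the right, Mrps24 is rightmost at 1.55, and Mrps2 and Mrpl43 reach 3.58 and 3.10 at 8 h.

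Position in the genome went with the size of the difference. Chromosome 11 held 11 of the 77 genes, Mrps24, Mrpl38, Mrpl22, Mrpl55, Mrpl12, Mrps7, Mrpl27, Mrpl58, Mrps23, Mrpl10 and Mrpl45 in the order of their differences at 0 h. Of these, 10 were at least 1.5-fold higher in R255K cells at 0 h, the exception being Mrpl45 with a ratio of 1.27 (1.22 to 1.33), and their median difference was 1.07, 0.90 and 1.06 on the log2 scale at 0, 4 and 8 h. Mrpl55 had 26.9, 20.1 and 9.87 FPKM in WT and 61.4, 51.7 and 44.0 FPKM in R255K cells. At 0 h Mrps7 had 43.3 FPKM in WT and 91.8 FPKM in R255K cells. Mrpl27 had 33.9 and 69.8 FPKM at 0 h, Mrps23 had 31.4 and 57.5 FPKM, and Mrpl58, a peptidyl-tRNA hydrolase that rescues stalled ribosomes, had 12.8 and 24.5 FPKM. The WT and R255K values of all of these did not overlap. The chromosome as a whole was shifted too. Its 984 tested genes had medians of 0.53, 0.58 and 0.71, with 44.9% at least 1.5-fold higher at 0 h, against 0.01, 0.15 and 0.30 for the 10885 genes elsewhere. The part of the chromosome in the difference of its mitochondrial ribosomal protein genes was not tested. For the 66 mitochondrial ribosomal protein genes on other chromosomes the medians were 0.38, 0.30 and 0.39, and 19, 15 and 28 were at least 1.5-fold higher (14.5%, 23.4% and 34.7% of the genes elsewhere), 0 lower. Without chromosome 11 the shift at 0 h was thus smaller and still present, with 19 of 66 genes in place of 29 of 77.

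A lasting difference was seen for 20 of the 77 genes, which were at least 1.5-fold higher in R255K cells at 0, 4 and 8 h (11.3% of all genes), and 0 were lower at all 3 times (2.65% of all genes). Of the 20, 9 lay on chromosome 11. The other 11 were Mrpl15, Mrpl16, Mrpl23, Mrpl43, Mrpl44, Mrpl46, Mrps2, Mrps12, Mrps18a, Mrps30 and Mrps34. Mrps30 and Mrps18a are named for the small subunit but sit in the large one. Mrps30 had 7.71, 4.94 and 2.66 FPKM in WT and 13.9, 11.2 and 9.45 FPKM in R255K cells, and Mrps18a had 10.6, 8.10 and 5.77 against 18.5, 14.7 and 14.4 FPKM. In both genes all 3 R255K values lay above the WT value of the same time, and the WT values were lower at each later time.

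After transcription was blocked, the genes split in WT cells. At 4 h, 7 of the 77 were at least 1.5-fold lower than at 0 h (32.2% of all genes) and 5 higher (6.3% of all genes), and in R255K cells 0 were lower (17.7% of all genes) and 1 higher (5.97% of all genes). At 8 h, 23 of the 77 were at least 1.5-fold lower than at 0 h (46.5% of all genes) and 17 were at least 1.5-fold higher (16.1% of all genes), with a median of −0.07 on the log2 scale against −0.47 for all genes. In R255K cells 7 were lower (26.8% of all genes) and 1 was higher (4.87% of all genes), with a median of 0.02 against −0.10. All 7 were among the 23 of WT cells. TMM factors gave 14 lower and 32 higher in WT (37.7% and 31.6% of all genes) and 3 lower and 3 higher in R255K cells (23.4% and 8.34%). Median-of-ratios factors gave 10 lower and 39 higher in WT (35.1% and 36.4%) and 3 and 9 in R255K cells (21.5% and 12.1%), with the median of all genes in WT cells at −0.08 and 0.06. Relative to all genes, the median of the mitochondrial ribosomal protein genes in WT cells was higher by 0.39 in the values as given here and by 0.50 and 0.53 with those factors. This distance depends on the level of the genes compared. Among genes with at least 10 FPKM at 0 h, the medians in WT cells were −0.09 for 69 mitochondrial ribosomal protein genes and −0.07 for all genes, and 20 of the 69 were lower (37.6% of all genes). The order of the genes was similar in the genotypes and the range was not. Across the 77 genes the changes had a Pearson r of 0.82 and a Spearman rho of 0.89, which describe genes of the same libraries and are no test. The SD over the genes was 0.37 in R255K against 0.89 in WT cells. In R255K cells 67 of the 77 lay nearer 0 (87.0%), as did 81.4% of all genes.

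Mrps2, a protein of the small subunit whose gene lies at chr2:28468066-28471178, had the lowest share left in WT cells. It had 36.4, 9.26 and 2.88 FPKM in WT cells at 0, 4 and 8 h, from 1853, 405 and 116 counts, and 62.9, 51.2 and 45.4 FPKM in R255K cells, from 2873, 2779 and 2491 counts. The remaining share at 8 h was 0.079 in WT (0.0649 to 0.0953) and 0.721 in R255K cells (0.683 to 0.761). The R255K level exceeded the WT level 1.73-fold at 0 h (1.63 to 1.83) and 15.8-fold at 8 h (13.1 to 19.2). Mrpl43, a mitochondria-specific protein of the large subunit, came next on the log2 scale of FPKM + 1 with 41.6, 18.8 and 6.74 FPKM in WT and 82.7, 68.4 and 65.5 FPKM in R255K cells, with remaining shares of 0.162 (0.132 to 0.197) and 0.792 (0.737 to 0.850). Mrpl44, which has an RNase III-like fold, had 36.5, 23.0 and 8.59 FPKM in WT and 66.9, 46.2 and 41.1 FPKM in R255K cells. In all 3 genes the WT values were lower at each later time, and every R255K value lay above the WT value of the same time.

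Mrpl32 and Mrpl1 completed the 5 lowest in WT cells, on that scale, with remaining shares of 0.140 (0.102 to 0.188) and 0.247 (0.208 to 0.291), and 0.505 (0.439 to 0.579) and 0.576 (0.509 to 0.651) in R255K cells. Not every gene differed so much between the genotypes. Mrps22, of the small subunit, had 11.6, 7.19 and 3.77 FPKM in WT and 10.9, 8.58 and 4.59 FPKM in R255K cells, the lowest share left in R255K cells, with remaining shares of 0.325 (0.278 to 0.379) and 0.421 (0.369 to 0.480). Mrpl46 had shares of 0.353 (0.305 to 0.408) and 0.560 (0.512 to 0.613). The other genes at least 1.5-fold lower in R255K cells were Mrpl32, Mrpl1, Mrpl44, Mrps35 and Mrps26. Mrps35 had 7.87, 7.05 and 3.58 FPKM in WT and 8.86, 7.16 and 5.22 FPKM in R255K cells, so that the genotypes lay close together there. Of the 23 genes lower at 8 h in WT cells, 7 had passed 1.5-fold by 4 h, and all 23 were lower at 8 h than at 4 h.

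Among the genes with a higher share of the library at 8 h in WT cells was Mrps21, highest on the log2 scale, with 44.8, 73.9 and 94.1 FPKM in WT and 63.9, 71.1 and 77.5 FPKM in R255K cells, a ratio of 8 h to 0 h of 2.10 (1.89 to 2.33) and 1.21 (1.10 to 1.33). Mrpl13 had 8.50, 13.3 and 18.3 FPKM in WT and 9.70, 13.4 and 13.8 FPKM in R255K cells. Mrps33 and Mrps15 followed, with ratios in WT cells of 2.06 (1.81 to 2.34) and 1.90 (1.75 to 2.07), and 1.5 (1.35 to 1.67) and 1.33 (1.22 to 1.45) in R255K cells. In R255K cells the highest after Mrpl42 and Mrps33 were Mrpl33, with 3.82, 5.30 and 5.69 FPKM, Mrpl13, and Mrps14, with a ratio of 1.37 (1.27 to 1.48). Mrpl42 was the exception. It had 28.3, 40.9 and 52.4 FPKM in WT and 23.6, 39.6 and 42.6 FPKM in R255K cells. Its ratios of FPKM at 8 h to 0 h were 1.86 (1.75 to 1.97) and 1.81 (1.69 to 1.93). On the scale of FPKM + 1, Mrpl42 was the only gene at least 1.5-fold higher at 8 h in R255K cells. Mrps33 stood at 0.56 on that log2 scale, just under the limit. All 17 genes that were higher in WT cells lay nearer 0 in R255K cells.

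**Figure D3:**
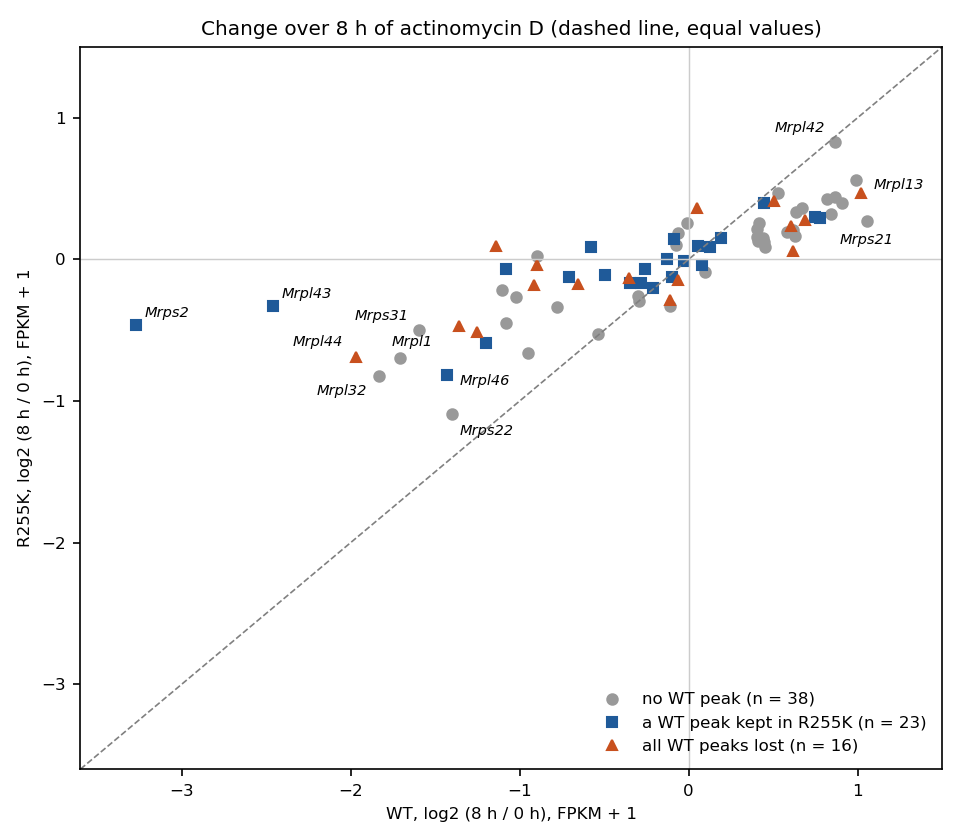
Log2 ratio of 8 h to 0 h (FPKM + 1) in WT cells (x axis) and R255K cells (y axis) for the 77 genes, by the state of their m6A peaks, with a dashed line of equal values. Most points lie between the dashed line and the horizontal line at 0, Mrps2 and Mrpl43 lie far to the left at −3.27 and −2.46, and Mrpl42 lies on the dashed line.

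The subunits resembled each other in this respect, with 14 of 50 genes of the large and 9 of 26 of the small subunit at least 1.5-fold lower at 8 h in WT cells, and medians of −0.08 and −0.09. By the origin of the proteins the shares lay further apart. Of 46 genes for proteins with bacterial homologues 9 were lower (median −0.02), and of 30 for mitochondria-specific proteins 14 were lower (median −0.42), against 46.5% and a median of −0.47 for all genes. The mitochondria-specific genes thus lay close to all genes tested, but this depends on the level of the genes compared. Among all genes with at least 10 FPKM at 0 h, the median in WT cells was −0.07 and 37.6% were lower. That median lay nearer to the genes with bacterial homologues, and that share lay between those of the classes. The class values were not limited to that level. In R255K cells 2 of 46 genes with bacterial homologues and 5 of 30 mitochondria-specific genes were lower. No test was made of this difference, and the genes of each class share their libraries.

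A half-life was computed where the decay rate, the mean of the rates from 0 to 4 h and from 0 to 8 h, was above 0 in both genotypes. This held for 31 of the 77 genes (46.4% of all genes). Among the 31, the R255K half-life was more than 1.5 times the WT half-life in 19 (68.8% of all genes with half-lives in both) and less than 1/1.5 of it in 4 (5.78%). The median half-lives were 28.4 h in R255K and 9.90 h in WT cells, against 8.08 h and 3.48 h for all such genes. The median ratio per gene was 1.94, close to the 1.98 of all such genes. For Mrps2 the half-lives were 2.10 h and 15.0 h, for Mrpl43 3.25 h and 18.1 h, for Mrpl44 4.67 h and 9.05 h, and for Mrps22 5.32 h and 8.25 h. Half-lives beyond the 8 h observed, the WT and R255K medians of the 31 genes among them, are extrapolations. The count of 31 fell to 19 with TMM and to 14 with median-of-ratios factors.

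MeRIP-seq placed m6A peaks on many of these mRNAs. In the WT list 39 of the 77 genes had a peak on an exon (50.6%, 95% Wilson interval 39.7 to 61.5), against 57.4% of all genes tested, and in the R255K list 24 had one (31.2%, 21.9 to 42.2), against 43.6% of all genes. Both lists had a peak for 22 genes, 17 had one in the WT list only, 2 in the R255K list only (3.5% of all genes), and 36 had none. Mrpl53, which had no counts, carried a WT peak in a stretch that Gm42688 shares. The 39 genes held 48 WT peaks, 1 each in 31 genes, 2 in 7 and 3 in 1 (Mrps26). The depth behind the lists is unknown, and a peak that is missing from a list was not called, which is not a measured absence of m6A.

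Most peaks lay near a stop codon. Of the 48 WT peaks, 35 had their summit within 200 bp of an annotated stop codon (72.9%, 59.0 to 83.4), against 29.8% of the WT peaks on all genes tested, and of 27 R255K peaks 18 did (66.7%, 47.8 to 81.4), against 26% of all. The mRNAs are short, with a median exon length of 2255 bases in the count tables against 3738 for all genes, and 20.3% of their exon bases lay this near a stop codon, against 12.2% for all genes. The motif GGAC stood within 100 bp of the summit on the gene's strand in 38 of 48 WT peaks (79.2%), and in 79% of the WT peaks of all genes. Fold enrichment over the local background had a median of 3.62 in the WT peaks of the mitochondrial ribosomal protein genes and 5.91 in those of all genes. The median −log10 q of the peak calls was 28.2 in the former and 30.5 in the latter. The peaks of the mitochondrial ribosomal protein genes were thus near the stop codon more often than those of all genes. They had a lower median fold enrichment and held GGAC about as often.

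Sequences are shown for the strongest peaks inside the genes (Mrpl46 and Mrpl15) and for the mRNAs with the fastest loss among those with a peak (Mrps2 and Mrpl43). The others come from the strongest lost peaks (Mrpl27, Mrpl50, Mrps30 and Mrps12). The lists were compared by the intervals of their peaks and not by these sequences. Each line gives 21 bases of the mm10 reference on the gene's strand, with the GGAC nearest to the WT summit in capitals and the coordinates of the printed bases (GRCm38, minus strand where marked). In the order printed, the A of that GGAC lay 41, −4, 2, −39, −59, −55, 69 and 9 bases from the summit, with upstream negative. A match to the motif is a description and not a mapped m6A site. The first 4 peaks were overlapped by an R255K peak and the last 4 were not.
Mrpl46, chr7:78775472-78775492, minus strand: tttctcctGGACtctgatgga
Mrpl15, chr1:4781979-4781999, minus strand: aatctgaaGGACtgcttactc
Mrps2, chr2:28469784-28469804: ggcattgtGGACaccaactgc
Mrpl43, chr19:45005671-45005691, minus strand: ggcgctttGGACcgtgagagg
Mrpl27, chr11:94659795-94659815: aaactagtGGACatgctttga
Mrpl50, chr4:49513697-49513717, minus strand: tctaatatGGACgaaaagatg
Mrps30, chr13:118380349-118380369, minus strand: ttgatctgGGACcttgacgag
Mrps12, chr7:28739929-28739949, minus strand: cgcacccaGGACctgcctggg

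Mrpl46, a mitochondria-specific protein of the large subunit, had the strongest peak with its summit inside a gene of the group, in the coding sequence of its last exon (4 of 4), 65 bp from the stop codon, at chr7:78775262-78775716. Its fold enrichment went from 15.0 in the WT list to 11.3 in the R255K list. The peak of Mrpl15 at chr1:4781436-4782170 had 14.1 and 15.2, with its summit in the 3′UTR of another annotated transcript. Mrps34 followed with 9.81 and 7.24, in coding sequence that Mapk8ip3 overlaps, and 69.1% of its exon bases are shared with other genes. Higher still, at 19.9 and 27.4, was a peak that overlaps an exon of Mrps24 and Urgcp and has its summit outside Mrps24, so it cannot be assigned to Mrps24. Of Mrps7, the peak in its 3′UTR had 5.02 and 4.93, and a stronger one at 6.75 and 4.67 had its summit outside the gene, at Mif4gd. Mrps25 had 5.97 and 5.15 in its 3′UTR, and 63.1% of its exon bases are shared with Nr2c2. The sequences of Mrps2 and Mrpl43, whose mRNAs had the shortest half-lives in WT cells among the genes with a WT peak, come from peaks with 5.89 and 4.04 for Mrps2, in the coding sequence of its last exon, and 5.86 and 2.33 for Mrpl43, in its 3′UTR 58 bp from the stop codon.

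Of the 48 WT peaks, 23 were not overlapped by any R255K peak (47.9%, 34.5 to 61.7), against 43.8% of the WT peaks of all genes tested, which is a share near that of all genes. The lost peaks were weaker by median. Their median fold enrichment was 2.77, against 5.06 for the 25 that were overlapped, and the highest of them was 5.42, a value that 9 of the overlapped peaks exceeded. Among the overlapped peaks the R255K fold enrichment was lower in 16 and higher in 9. It was 7.22 in WT and 2.85 in R255K on Mrps27, and 5.11 and 8.67 on Mrpl41. The strongest lost peaks lay on Mrpl27 (5.42, 3′UTR, 50 bp from the stop codon), Mrpl50 (5.41, 3′UTR), Mrps30 (5.22, coding sequence, 74 bp from the stop codon), Mrpl27 again (4.91, in an intron at the Eme1 overlap), Mrps12 (4.51, coding sequence, 78 bp from the stop codon), Mrpl38 (3.98 and 3.31), Mrpl50 again (3.41) and Mrpl14 (3.37). The genes with a peak in the R255K list only were Mrpl42, with 5.28 and its summit in an intron, and Mrpl57, with 2.24 in its coding sequence. R255K peaks without a WT counterpart also lay on Mrpl10 (4.17, intron) and in the first exon of Mrps34 (2.94). By subunit, 20 of 33 WT peaks were lost on the large and 3 of 15 on the small subunit genes (60.6%, 43.7 to 75.3, and 20%, 7.05 to 45.2). The overlapped peaks on small subunit genes include those with their summits outside Mrps24 and Mrps7. The lost peaks on large subunit genes include the intron peak of Mrpl27. No test was made of this difference.

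**Figure D4:**
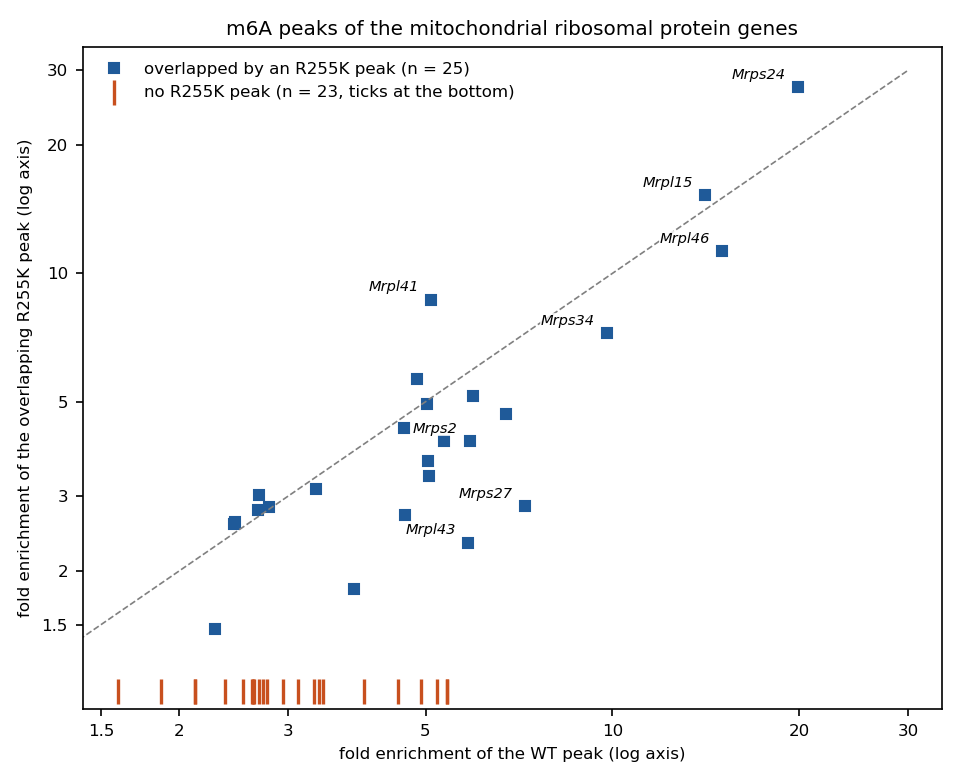
Fold enrichment of the 48 WT peaks on the 77 genes (x axis, log) and of the R255K peak that overlaps each (y axis, log), with ticks at the bottom for the 23 WT peaks that no R255K peak overlaps and a dashed line of equal values. The ticks end at 5.42, and the squares above that value include Mrpl46, Mrpl15 and the peak shared by Mrps24 and Urgcp.

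Genes with and without a WT peak differed in their change over 8 h by less than all genes did. In WT cells the 38 genes without a peak had a median of 0.41 and 10 were at least 1.5-fold lower, and the 39 with a peak had a median of −0.21 and 13 were lower. For all genes the medians were 0.18 and −1.03, and 22.9% and 64.1% were lower. A WT peak was overlapped by an R255K peak in 23 genes, among them Mrps24, whose overlapped peak is the one at Urgcp and whose own peak (3.11) was lost, and in 16 genes no WT peak was. The medians were −0.21 and −0.23, with 6 of 23 (26.1%) and 7 of 16 (43.8%) at least 1.5-fold lower in WT cells. For all genes the medians were −1.25 and −0.61, and 70.2% and 50.9% were lower. The change over 8 h in R255K minus that in WT cells had medians of 0.13 and 0.27, and 0.62 and 0.40 for all genes. Loss of the peak and fast loss of the mRNA in WT cells were not the same set of genes, since Mrps2 and Mrpl43 kept an overlapping peak, Mrpl44 lost its own (2.77), and Mrpl32, Mrpl1, Mrps31 and Mrps22 had no peak in the WT list. At 0 h the genes with a WT peak were shifted more towards R255K, with a median of 0.64 against 0.24 for those without, while for all genes the medians were 0.02 and 0.09. Of the 29 genes at least 1.5-fold higher in R255K cells at 0 h, 22 had a WT peak, against 39 of all 77. So did 17 of the 20 that were higher at all 3 times and 10 of the 11 genes on chromosome 11. The counts of 22 and 17 include genes on chromosome 11, and the matching counts over all genes were not made. The genes with a WT peak also had a higher median level in WT cells at 0 h, 36.4 against 20.3 FPKM (8.14 against 8.25 FPKM for all genes). Their median exon length was 2064 against 3091 bases (4546 against 2618 for all genes). The part of level and length in this shift was not tested. Off chromosome 11 the medians at 0 h were 0.57 for the 29 genes with a peak and 0.24 for the 37 without.

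The mitochondrial ribosomal protein genes were unlike the cytoplasmic ribosomal protein genes and the nuclear genes for subunits of the respiratory chain, the other large sets of housekeeping mRNAs for ribosomes and mitochondria. Those sets had few m6A peaks in WT cells, in 11 of 76 and 6 of 75 genes, and had more in R255K cells, with 28 of 76 and 23 of 75, where the mitochondrial ribosomal protein genes had 39 and 24 of 77. In WT cells at 8 h, 1 of 76 cytoplasmic ribosomal protein genes and 0 of 75 respiratory chain genes were at least 1.5-fold lower (46.5% of all genes). At least 1.5-fold higher were 62 and 66 (16.1% of all genes), with medians of 0.72 and 0.90. In R255K against WT cells their medians were 0.17 and 0.16 at 0 h and −0.37 and −0.38 at 8 h. The lists were compared by these counts and medians only, and the genes within each share their libraries.

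**Figure D5:**
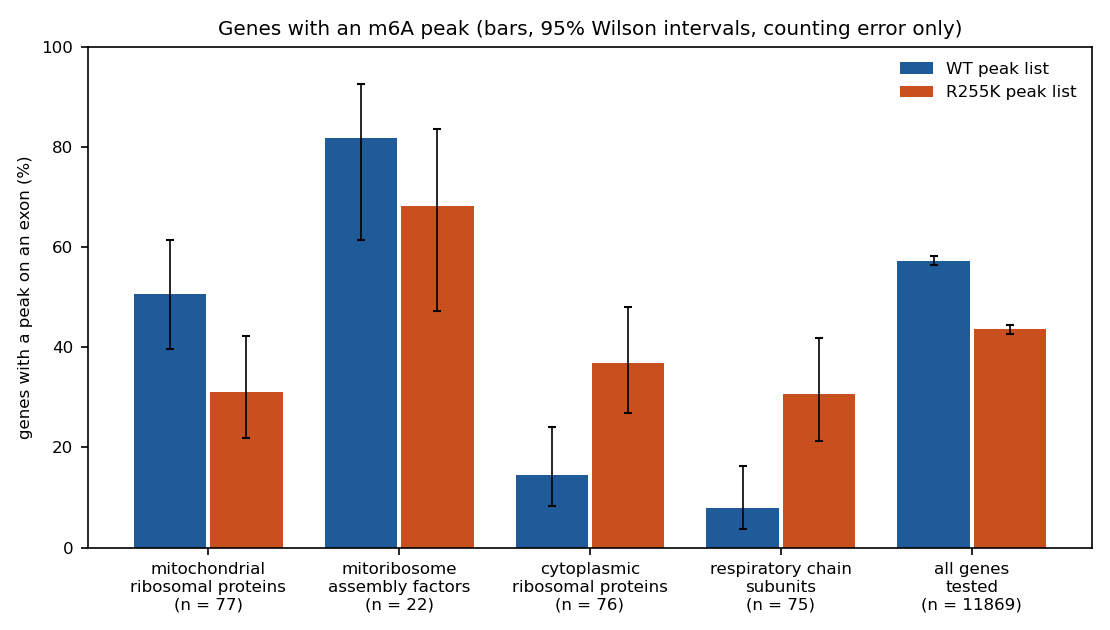
Percent of genes with an m6A peak on an exon in the WT list (blue) and the R255K list (orange) for 5 sets of genes, with 95% Wilson intervals that cover counting error only. The WT bar stands above the R255K bar for the mitochondrial ribosomal proteins (50.6% and 31.2%) and below it for the cytoplasmic ribosomal proteins (14.5% and 36.8%) and the respiratory chain subunits (8% and 30.7%).

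The genes that serve the mitochondrial ribosome were counted in the same way. The shares for all genes were 57.4% with a WT and 43.6% with an R255K peak, and 46.5% and 26.8% lower at 8 h in WT and R255K cells. In WT cells 16.1% were higher at 8 h. Against WT, 17%, 25.6% and 36.6% were higher in R255K cells at 0, 4 and 8 h, and 15.7%, 7.29% and 8.2% lower. At all 3 times 11.3% were higher. Of 22 mitoribosome assembly factors, which process and modify the rRNA and join the subunits, 18 had a WT and 15 an R255K peak, and 16 were at least 1.5-fold lower at 8 h in WT cells and 9 in R255K cells, with medians of −1.18 and −0.38. Against WT, 7, 12 and 16 of them were at least 1.5-fold higher in R255K cells at 0, 4 and 8 h and 0 lower. Those higher at all 3 times were Mterf4, Mrm1, Mrm3 and Ngrn. Of these, Mrm1 and Mrm3 lie on chromosome 11, which was shifted as a whole, and so does Eral1, higher at 0 h. Ngrn had 44.0, 8.10 and 2.91 FPKM in WT and 79.8, 50.3 and 32.1 FPKM in R255K cells. Of 14 translation factors of mitochondria, 9 had a WT and 4 an R255K peak, and 6 were lower at 8 h in WT cells and 3 in R255K cells, with medians of −0.06 and 0.07. Of the 5 further mitoribosome proteins whose symbols lack Mrp (Dap3, Ptcd3, Chchd1, Aurkaip1 and Gadd45gip1), 4 were at least 1.5-fold higher at 8 h in WT cells, and Gadd45gip1 was lower, with 23.1, 16.6 and 9.72 FPKM in WT and 31.7, 29.9 and 29.6 FPKM in R255K cells. Of the 3 genes of mitochondrial transcription, all had a WT peak and 2 were lower at 8 h in WT cells.

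Promoters were searched for motifs known from housekeeping genes, and each was found in a minority of the windows. RefSeq (GRCm38.p6) gave 75 windows for 69 of the genes, each from 250 bases before to 50 after an annotated start, and motifs were searched on both strands. CCGGAAG, a core of ETS factor motifs, stood in 26 of 75 windows (34.7%, 24.9 to 45.9), in 18.6% of the windows of all genes tested and in 8.86% of all 32851 windows. AAGATGG, a core of the YY1 motif, stood in 17.3% (10.4 to 27.4), 7.47% and 6.34%, and the NRF1 motif (GCGC and TGCGC with 1 base between them) in 17.3% (10.4 to 27.4), 10.7% and 4.60%. The interval for the NRF1 motif includes the share of all genes tested. These matches describe letters in the windows and carry no measurement of binding.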

How the data were processed

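Per the labels and the study's methods, the authors used Bowtie2 2.2.6 to discard rRNA reads, HISAT2 for alignment to mm10, and Picard 2.16.0 with SAMtools 0.1.09 to retain uniquely mapped reads. The deposited count tables hold whole counts per gene without normalization, and the counting tool and any use of strand are not given in the sources used here. The deposited peak lists, called by the authors with MACS2, hold the fold enrichment (a ratio to the local background) and the −log10 q of each peak. Their −log10 p column was not used. The way in which 2 IP and 2 input libraries gave 1 list is not given in the sources used here.

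FPKM were derived by dividing counts by exon length and library total (Python 3.11.15, pandas 2.3.3). Ratios carry exact conditional binomial intervals. With 1 library per point no test was made. Counts at 4 and 8 h below 3 were set to 3 for half-lives. Peaks were joined to exons by overlap of coordinates in Python (at least 1 bp) and placed on GENCODE vM21. The calculations were tested on simulated data. TMM factors came from edgeR 4.0.16. The genes and lists were chosen with earlier results of these data known. Genes were named by fixed ranks: the 5 highest and lowest by level, by genotype difference at 0 h and by change over 8 h in each genotype, the 8 strongest WT peaks, the strongest lost peaks, R255K-only peaks, chromosome 11, and genes with a known role. Mrps2, Mrpl43 and further genes are named in comparisons of peaks with decay after their values were seen.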

Additional observations from a re-analysis of the deposited data

Results flagged for a closer look

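For 4 of the 77 genes, both later libraries of one genotype lay above its 0 h library and both later libraries of the other lay below it (5.19%, against 10.9% of all 11869 genes tested). The difference between the genotypes was not tested, since each value comes from 1 library. For Mrpl50 the ratios of 4 h and 8 h to 0 h were 0.754 and 0.439 in WT and 1.17 and 1.07 in R255K cells. For Mrpl57 they were 0.833 and 0.499 in WT and 1.07 and 1.02 in R255K cells. For Mrps24 they were 0.942 and 0.659 in WT and 1.02 and 1.06 in R255K cells. Mrpl22 went the other way, with 1.19 and 1.07 in WT and 0.895 and 0.941 in R255K cells. In each of these genes at least 1 of the 4 ratios had a 95% counting interval that reached 1. In R255K cells these were Mrpl50 at 8 h (0.983 to 1.16), Mrpl57 at 4 h (0.973 to 1.18) and 8 h (0.923 to 1.12), Mrps24 at 4 h (0.964 to 1.08), and Mrpl22 at 8 h, whose upper bound was 1.00. In WT cells they were Mrpl22 at 8 h (0.969 to 1.19) and Mrps24 at 4 h, whose lower bound was 0.849.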

How the results depend on the processing

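No paired analysis was possible because each genotype and time has 1 library and the peak lists are 1 per genotype. Median-of-ratios and TMM scaling changed most. Genes at least 1.5-fold higher in R255K cells at 8 h numbered 23 (TMM) and 18 (median of ratios) in place of 38, those lower 8 and 14 in place of 0, genes with a half-life in both genotypes 19 and 14 in place of 31, the median change over 8 h 0.42 and 0.59 in place of −0.07 in WT cells, and 0.15 and 0.22 in place of 0.02 in R255K cells. The count higher at 0 h was 29 of 77, 19 of 66 without chromosome 11 and 17 of 54 without genes that share over 5% of their exon bases, settings chosen after seeing the data. The latter also left 25 of 54 higher at 8 h and 20 with a half-life in both. Requiring a fold enrichment of at least 4 left 20 of 77 genes with a WT peak in place of 39 (47% of all genes), 12 with an R255K peak in place of 24 (32.7% of all genes), and 10 lost peaks in place of 23 (45.5% of 22, against 46.9% of the WT peaks of all genes). At 4 h in place of 8 h, 7 genes were lower and 5 higher in WT cells, against 23 and 17. Of 113 alternative values 29 moved and 84 did not, and the median change in WT cells, near 0, took the other sign under both scalings. The depth of the peak lists is unknown, and the 1 library per point limits every difference.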
